A study of Mus musculus with 4 samples.

Results

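The Zscan4 cluster is a run of near-identical zinc finger genes on mouse chromosome 7. The rows named Zscan4a, Zscan4b, Zscan4c, Zscan4d, Zscan4e and Zscan4f were taken from the expression tables, 1 row per name, which gave 6 genes of the 22739 named genes in the tables. Poly(A) RNA was sequenced from CCE cells, a 129SV mouse line of embryonic stem (ES) cells grown on gelatin with serum and leukemia inhibitory factor (LIF). The control group, shLuci, carried a short hairpin RNA against luciferase, which has no mouse counterpart, and the other group, shTex10, a hairpin against Tex10. Each group had 2 libraries, and the labels do not say how many hairpin sequences, clones or days of knockdown lie behind them. The series title places Tex10 in super-enhancer control of pluripotency, and the comparison of shTex10 with shLuci asks which transcripts differ once Tex10 is depleted. Values are FPKM, which count sequenced fragments relative to transcript length and to the size of the library.

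Full-length ZSCAN4 proteins have a SCAN domain, which binds other SCAN proteins, and zinc fingers that bind DNA. Zscan4 genes are known for a burst of transcription in the late 2-cell embryo, when the embryo first activates its own genome. In ES cell cultures they are transcribed in a small and changing fraction of cells, which at that time also transcribe other genes of the 2-cell embryo, and ZSCAN4 proteins have been tied to the lengthening of telomeres. Zscan4c has been described as the main copy of ES cells and Zscan4d as that of the 2-cell embryo.

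The 6 rows lay in 1 stretch of 608 kb in the mm9 build, in the order of their letters. With starts counted from 1, these are Zscan4a (XLOC_024635, chromosome 7, 11379590 to 11384414), Zscan4b (XLOC_024636, 11486089 to 11490399), Zscan4c (XLOC_023589, 11591094 to 11595896), Zscan4d (XLOC_024637, 11746992 to 11751497), Zscan4e (XLOC_024638, 11891727 to 11896031) and Zscan4f (XLOC_023591, 11983264 to 11987667). The copies stand apart by 87.2 to 151 kb. RefSeq lists Zscan4b, Zscan4c, Zscan4d and Zscan4f as protein coding, Zscan4a as a transcribed pseudogene and Zscan4e as a pseudogene. It also places the pseudogene Zscan4-ps1 between Zscan4c and Zscan4d, and Zscan4-ps2 and Zscan4-ps3 beyond Zscan4f, and no row of the tables carries these 3 names.

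The stretches just before the RefSeq starts of 4 members are shown because they let the copies be compared where transcription begins, in genes whose RNA moved together. They are the 250 bases before the start in GRCm38.p6, a later build than that of the tables: Zscan4b at chr7:10905051-10905300 (minus strand), Zscan4c at chr7:11005495-11005744 (plus strand), Zscan4d at chr7:11166149-11166398 (minus strand) and Zscan4f at chr7:11397665-11397914 (plus strand). Each is written 5′ to 3′ towards the gene, with the letters TATAAAAG, a form of the TATA box, in capitals.
Zscan4b: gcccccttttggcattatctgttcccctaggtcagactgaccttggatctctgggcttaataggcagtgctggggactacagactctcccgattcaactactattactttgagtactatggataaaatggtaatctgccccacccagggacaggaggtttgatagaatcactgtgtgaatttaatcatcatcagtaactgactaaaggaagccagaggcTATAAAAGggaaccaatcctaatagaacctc
Zscan4c: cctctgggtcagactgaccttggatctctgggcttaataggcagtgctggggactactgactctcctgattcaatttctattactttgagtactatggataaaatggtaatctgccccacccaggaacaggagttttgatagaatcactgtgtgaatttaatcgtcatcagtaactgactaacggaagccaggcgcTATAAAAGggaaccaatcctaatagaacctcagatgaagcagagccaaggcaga
Zscan4d: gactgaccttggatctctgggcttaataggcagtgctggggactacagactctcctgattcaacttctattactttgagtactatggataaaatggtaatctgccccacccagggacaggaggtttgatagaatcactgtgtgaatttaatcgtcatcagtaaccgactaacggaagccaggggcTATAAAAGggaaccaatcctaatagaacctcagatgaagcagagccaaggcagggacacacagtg
Zscan4f: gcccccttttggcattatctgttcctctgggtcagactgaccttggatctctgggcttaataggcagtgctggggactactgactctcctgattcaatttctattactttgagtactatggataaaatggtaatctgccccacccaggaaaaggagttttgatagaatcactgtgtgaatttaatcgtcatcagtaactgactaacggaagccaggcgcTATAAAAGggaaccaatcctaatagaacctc
The letters TATAAAAG began 31 bases before the start in Zscan4b and Zscan4f, 54 in Zscan4c and 65 in Zscan4d, so the annotated starts lie at different distances from it in otherwise alike stretches. Of 32851 RefSeq windows of this length, 496 (1.51%) held TATAAAAG on either strand, against 4 of these 4. The 4 stretches are near-identical copies and not 4 separate cases, so no enrichment can be read from this count. Other motifs were searched for as well, of which some occurred in most or all of the 4 stretches and some in none. Aligned without their overhanging ends, the 4 stretches were 94.7% to 99.6% identical in pairs, and Zscan4c and Zscan4f differed at 1 of 227 positions.

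All 6 Zscan4 genes rose in shTex10, by 6.62-fold to 8.50-fold in mean FPKM. Of all 11883 genes tested, 19.8% were called higher (limma, Benjamini-Hochberg adjusted p under 0.05 over all genes) and 31.8% lower, and 28.3% had both shTex10 libraries above both shLuci libraries, as all 6 Zscan4 genes did. Each member was above an FPKM of 1 in all 4 libraries, so none passed the filter on low values, a mean FPKM of at least 1, through shTex10 alone. The median log2 change of the 6 was 2.66, a difference of log2(FPKM + 1), against a median of -0.14 over all genes tested. Relative to that median the members' median was 2.80. The knockdown itself left 15.7% of the Tex10 transcript, at 77.3 and 82.1 FPKM in shLuci and 11.6 and 13.4 FPKM in shTex10.

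Zscan4c, described as the main copy of ES cells, measured 16.1 and 18.5 FPKM in shLuci and 104 and 125 FPKM in shTex10. The groups were far apart, and the 2 shTex10 libraries differed more from each other than for most other copies. The mean went from 17.3 ± 1.73 to 115 ± 14.5 FPKM (SD, n = 2 each), a log2 change of 2.66 (standard error 0.13, adjusted p = 0.000180).

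Zscan4d, the copy of the 2-cell embryo, measured 11.9 and 12.9 FPKM in shLuci and 98.2 and 105 FPKM in shTex10, with close replicates in both groups. In the control both its values stood below both values of Zscan4c. In shTex10 the values of the 2 genes overlapped between libraries, though Zscan4d was again below Zscan4c within each library. Its log2 change of 2.94 (standard error 0.09, adjusted p = 0.000140) was the largest of the 6 on this scale. That change stood in place 12 among the genes tested, counted from the largest rise. By the ratio of means, which has no added 1, Zscan4d stood in place 70. Its ratio of 8.18 was below that of Zscan4b (8.50).

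Zscan4f, also protein coding, was the most abundant copy in shTex10, at 148 and 161 FPKM against 18.6 and 21.8 FPKM in shLuci. Its log2 change was 2.88 (standard error 0.11, adjusted p = 0.000143). In shTex10 it lay above every other copy in both libraries, whereas in shLuci it overlapped Zscan4a. The mean of 155 ± 9.36 FPKM (SD, n = 2) was above the levels of 96.1% of the genes tested in shTex10, and the shLuci mean of 20.2 ± 2.27 FPKM above 64.1% of those in shLuci.

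Zscan4b, the remaining protein-coding copy in RefSeq, was the least abundant, with 1.89 and 2.42 FPKM in shLuci and 20.7 and 15.9 FPKM in shTex10. The groups did not overlap, but the shTex10 libraries differed from each other more than for any other member in proportion to their mean. The ratio of means was 8.50 ± 2.19 (SD carried over from both groups, n = 2 each). The log2 change of 2.61 (standard error 0.16, adjusted p = 0.000273) understates it, because the added 1 weighs most on low values.

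The rows of the pseudogene copies moved with those of the coding ones. Zscan4a, which RefSeq calls a transcribed pseudogene, measured 19.3 and 21.1 FPKM in shLuci and 131 and 136 FPKM in shTex10, a log2 change of 2.67 (standard error 0.09, adjusted p = 0.000140). It was among the most abundant copies in both groups. Zscan4e, listed as a pseudogene without a transcribed label, measured 4.76 and 5.36 FPKM in shLuci and 35.6 and 38.3 FPKM in shTex10, a log2 change of 2.65 (standard error 0.10, adjusted p = 0.000143). Both rows were clearly separated between the groups. Most of the Zscan4e sequence also fits other copies, as given below, so a rise of this pseudogene by itself is not shown.

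**Figure D1:**
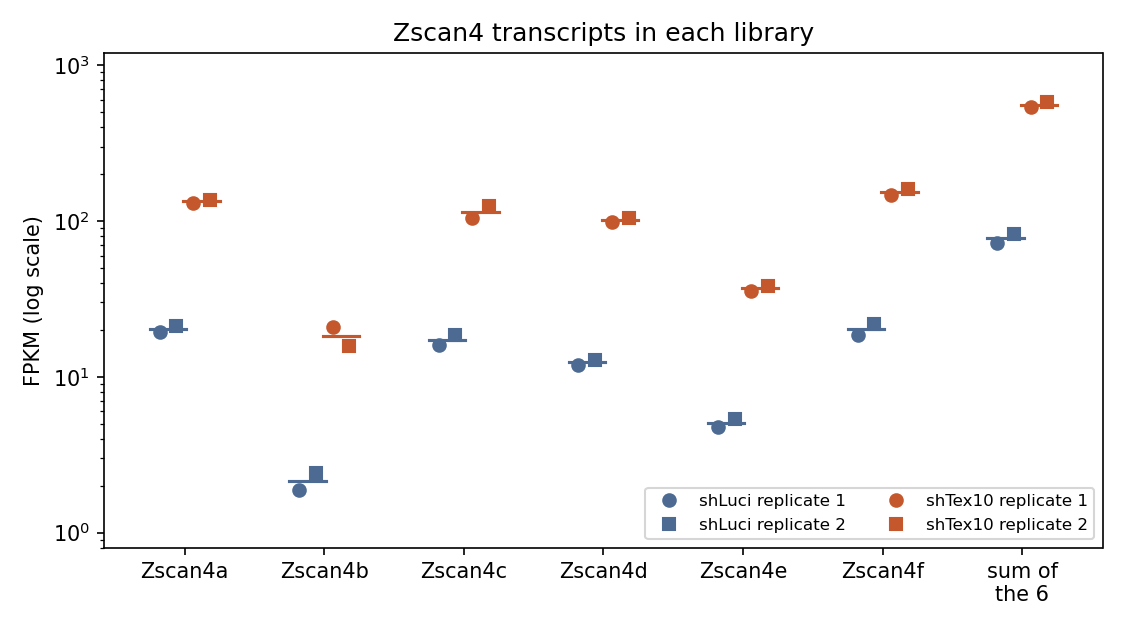
FPKM on a log scale (y axis) of each Zscan4 gene and of their sum (x axis), with 1 point per library, circles for replicate 1 and squares for replicate 2, and lines at the mean of each group. For all 6 genes and the sum, both shTex10 libraries lie above both shLuci libraries, with the sum at 72.6 and 82.1 in shLuci and 538 and 581 in shTex10.

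Summed over the 6 genes, FPKM came to 72.6 and 82.1 in shLuci and to 538 and 581 in shTex10, with no overlap. The mean went from 77.3 ± 6.70 to 560 ± 30.5 FPKM (SD, n = 2 each), and single pairs of libraries gave ratios between 6.56 and 8.01 around the ratio of means of 7.24. As a share of the FPKM of all named rows, the sum made up 0.0118% and 0.0130% in shLuci and 0.102% and 0.108% in shTex10. No test was applied to the sum, since its members were chosen with earlier results known, and with 2 libraries a group the smallest p of an exact two-sided permutation test is 0.33. In bulk RNA, more cells that transcribe Zscan4 and more Zscan4 RNA per such cell cannot be told apart.

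**Figure D2:**
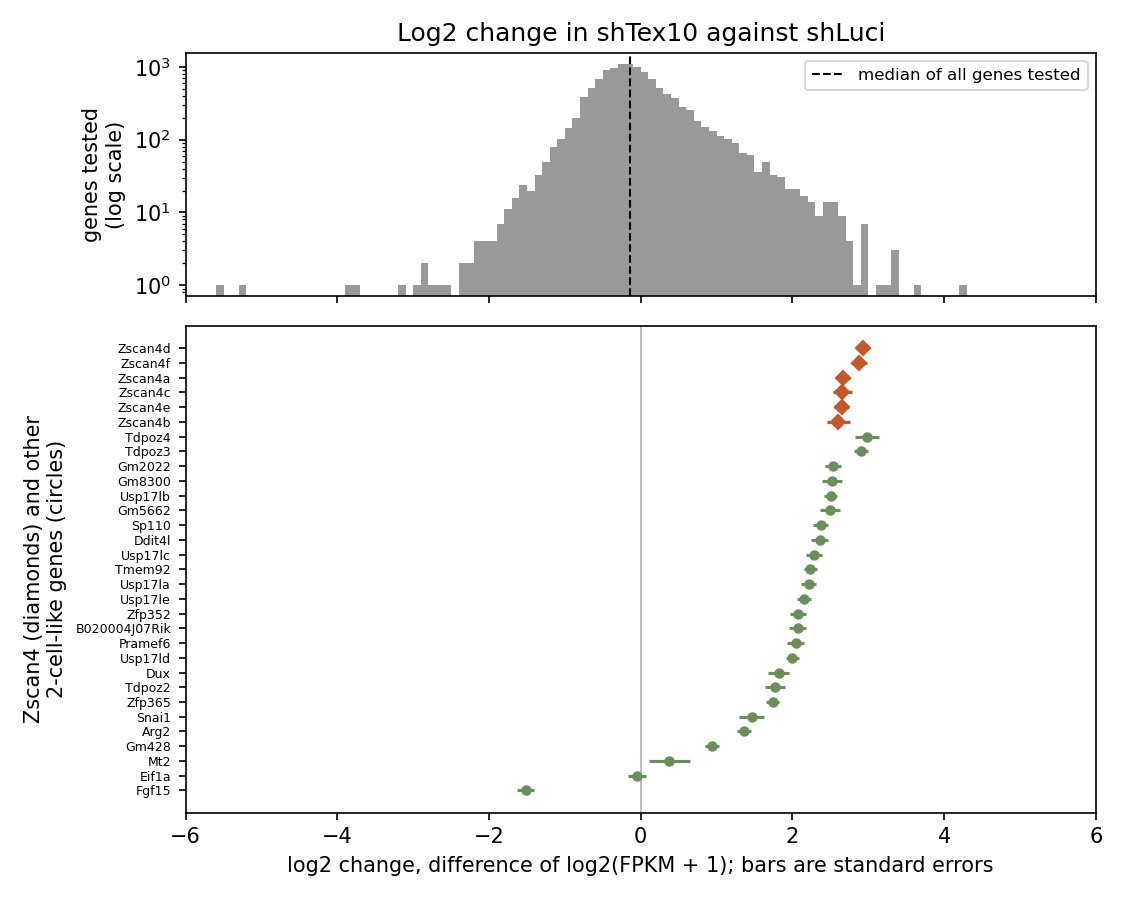
The upper panel counts the genes tested (log scale) by log2 change in shTex10 against shLuci, with the median of all genes as a dashed line. The lower panel gives the log2 change with its standard error for the 6 Zscan4 genes (diamonds, 2.61 to 2.94) and the 25 tested genes of a list of other 2-cell-like genes (circles, median 2.07).

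Levels per length kept nearly the same order in both groups. In shLuci the order of mean FPKM was Zscan4a, Zscan4f, Zscan4c, Zscan4d, Zscan4e and Zscan4b, and of the neighbours in that order only Zscan4a and Zscan4f overlapped. In shTex10 it was Zscan4f, Zscan4a, Zscan4c, Zscan4d, Zscan4e and Zscan4b, and of these neighbours only Zscan4c and Zscan4d overlapped.

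The make-up of the sum shifted little. Zscan4d made up 16.4% and 15.7% of the Zscan4 sum in shLuci and 18.2% and 18.0% in shTex10, and Zscan4f 25.6% and 26.6% against 27.5% and 27.7%. Both shares were higher in each shTex10 library than in each shLuci library. The shares of Zscan4a, at 26.7% and 25.7% in shLuci and 24.4% and 23.5% in shTex10, and of Zscan4c, at 22.2% and 22.6% against 19.4% and 21.5%, were lower without overlap. Zscan4e held 6.56% and 6.53% of the sum in shLuci and 6.62% and 6.58% in shTex10. Its groups did not overlap either, though the means differed by only 0.057 percentage points. Zscan4b held between 2.60% and 3.85% with overlapping groups. These shifts, of at most 2.25 percentage points in the means, are small beside the rise of every copy, and shares of 1 sum are not independent of each other.

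**Figure D3:**
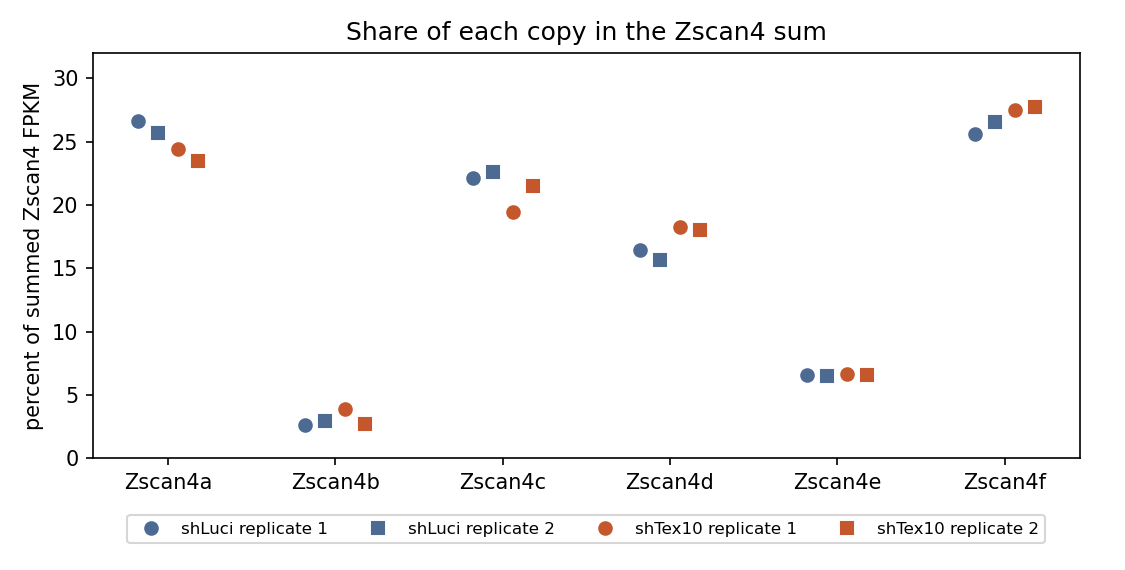
Percent of the summed Zscan4 FPKM (y axis) held by each copy (x axis), with 1 point per library. Zscan4d and Zscan4f hold a slightly larger share in both shTex10 libraries and Zscan4a and Zscan4c a slightly smaller one, by no more than 2.25 percentage points in the means.

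Reads of 100 bases, as sequenced here, do not always tell the copies apart. The longest GENCODE M21 transcripts of the 6 genes were 94.1% to 97.8% identical in pairs, with gap positions counted as differences. Zscan4b and Zscan4e had only 5 mismatches beside 48 gap positions in an alignment of 1770. Zscan4c and Zscan4f had only 7 beside 48 gap positions in 1854. In the other pairs the mismatches ran from 29 to 60. Of all 100-base stretches in a transcript, the share found in no transcript of another gene was 70.4% for Zscan4d and 60.9% for Zscan4a, but 27.2% for Zscan4c, 21.3% for Zscan4b, 15.9% for Zscan4e and 10.5% for Zscan4f. Most of the sequence of Zscan4f, Zscan4e, Zscan4b and Zscan4c thus fits several copies, and how the authors divided such reads is not stated, so values of single copies are uncertain. The copies with the most unshared sequence rose by 8.18-fold (Zscan4d) and 6.62-fold (Zscan4a), at the upper and lower part of the range over the 6. Their ratios did not overlap between pairs of libraries, at 7.63 to 8.78 for Zscan4d and 6.23 to 7.05 for Zscan4a. The reference transcripts are of the C57BL/6J strain and the cells of 129SV, whose copies may differ.

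**Figure D4:**
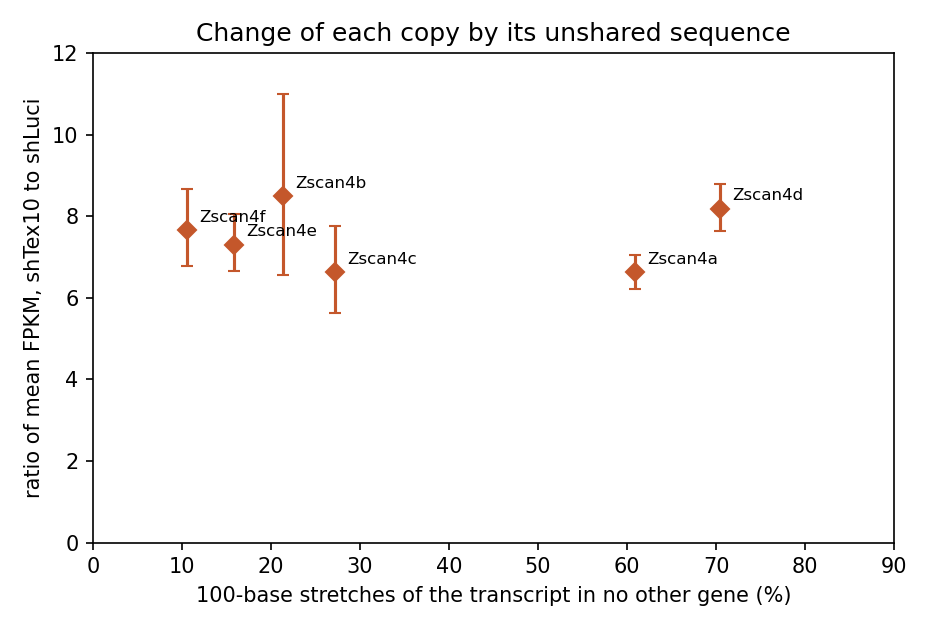
Ratio of mean FPKM in shTex10 to shLuci (y axis) for each copy against the percent of 100-base stretches of its longest transcript that occur in no other gene (x axis), with bars from the lowest to the highest ratio between single libraries. Copies with little unshared sequence (Zscan4f, 10.5%) and with much (Zscan4d, 70.4%) all lie between ratios of 6.62 and 8.50.

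Transcription within the cluster that no gene name covers was higher as well. All 10 unnamed rows between Zscan4a and Zscan4f were above both shLuci libraries in both shTex10 libraries, where 49.9% of the 7329 unnamed rows of the tables were. Some of these rows share the locus 11761426 to 11773961, so they are not 10 separate places. Of the 10, 2 stayed below 1 FPKM in all 4 libraries. The ratios of mean FPKM of the 10 rows ran from 4.93 to 11.3, with a median of 5.73. The row with the highest level lay between Zscan4c and Zscan4d (11649946 to 11650850 in mm9), in the interval where the RefSeq order of GRCm38 has Zscan4-ps1, and measured 2.97 and 2.45 FPKM in shLuci and 31.3 and 30.1 FPKM in shTex10. Only the order of genes was compared between the builds, and 4 unnamed rows lie in that interval, so the row was not matched to the pseudogene. Whether reads of the named copies were placed in these rows was not tested.

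Most named genes around the cluster were not detected. Within 1 Mb on either side lay 28 named rows, of which 25 were vomeronasal receptor genes, receptors of the accessory olfactory system, and 22 of the 28 were listed at 0 in all 4 libraries. Only Zik1, a zinc finger gene before Zscan4a, was high enough to be tested. It measured 5.40 and 6.35 FPKM in shLuci and 4.08 and 4.56 FPKM in shTex10 and fell (log2 change -0.37, standard error 0.11, adjusted p = 0.0379). That call was lost under 3 rescalings. The log2 change of Zik1 was -0.27 without shLuci replicate 2 and -0.30 without shTex10 replicate 1. The receptor gene Vmn2r52, at 0.0408 and 0.0618 FPKM in shLuci and 0.379 and 0.372 FPKM in shTex10, lay below the filter, with a ratio of means of 7.33 that falls within the range of the Zscan4 genes, and Vmn1r77 was listed at 0 in both shLuci libraries and at 0.0892 and 0.0830 FPKM in shTex10. Beyond Zscan4f lay 2 unnamed rows, and both were higher in both shTex10 libraries, at ratios of 1.91 and 7.09.

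**Figure D5:**
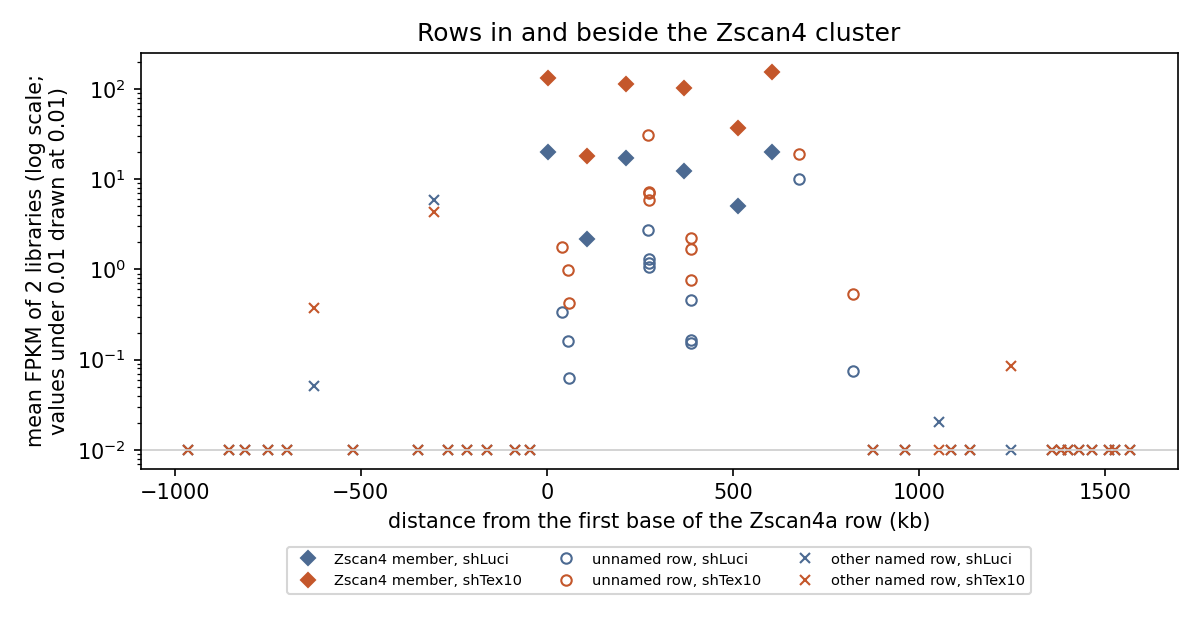
Mean FPKM of the 2 libraries of each group (y axis, log scale, values under 0.01 drawn at 0.01) by distance from the Zscan4a row (x axis, kb), for the 6 Zscan4 genes (diamonds), unnamed rows (open circles) and other named rows (crosses). Zscan4 genes and the 10 unnamed rows among them are higher in shTex10, as are the 2 unnamed rows beside the cluster (ratios 1.91 and 7.09), while most named rows on both sides sit at 0.

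The genes whose pattern over the 4 libraries was most like that of the Zscan4 sum were found by the Euclidean distance between centred log2(FPKM + 1) values. Outside the cluster the 6 nearest of the genes tested were Neurod1, a neural transcription factor gene (distance 0.0938), Tdpoz3, a gene of the 2-cell embryo (0.0957), the predicted gene Gm10696 (0.104), Pvrl4, an adhesion gene also called Nectin4 (0.152), the predicted gene Gm4971 (0.217) and Cpne2, a copine gene (0.230). For comparison, the distance of the members themselves ran from 0.0494 (Zscan4f) to 0.414 (Zscan4b). Neurod1 measured 2.21 and 2.45 FPKM in shLuci and 20.5 and 23.5 FPKM in shTex10, and Tdpoz3 5.48 and 6.22 against 50.0 and 50.3 FPKM. With 4 libraries in 2 groups, such likeness mostly says that a gene rose by a like amount.

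Other genes of the 2-cell-like state rose too. Of 43 genes listed, 33 were in the tables and 25 were tested, of which 22 rose, 1 fell and 2 did not pass, at a median log2 change of 2.07. The background was 19.8% of all genes called higher, with a median of -0.14. Of the 25, 3 had a mean below 1 FPKM in shLuci and passed the filter only through shTex10, and 6 of the 33 were listed at 0 in all libraries. Tdpoz3, a gene of a family with TRAF and POZ domains, had a log2 change of 2.90 (SE 0.10), and Usp17lb, of a deubiquitinase family, rose from 5.57 and 5.35 to 34.9 and 36.3 FPKM. Tmem92 rose from a mean of 12.4 ± 0.596 to 62.2 ± 1.46 FPKM (SD, n = 2 each), and Gm2022 from 19.3 and 19.0 to 108 and 125 FPKM. The exceptions, named after their values were seen, were Fgf15, a growth factor gene that fell (log2 change -1.51, SE 0.11), Eif1a, an initiation factor gene (-0.05, SE 0.12), and Mt2, a metallothionein gene (0.38, SE 0.27). Both Tdpoz and Usp17l families, like Zscan4, hold alike copies that may share reads, so the 22 are not 22 separate cases. Dux, given next among the activators, is also 1 of the 22.

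Of genes known to activate the 2-cell-like state, Dux rose. Dux encodes a double homeobox factor that activates Zscan4 and other 2-cell genes, and it measured 1.98 and 1.55 FPKM in shLuci and 9.76 and 7.82 FPKM in shTex10 (log2 change 1.82, standard error 0.14, adjusted p = 0.000477). The groups did not overlap, and the level stayed below that of every Zscan4 gene in shTex10. Dppa2, whose protein acts upstream of Dux with that of Dppa4, rose from 107 and 120 to 140 and 160 FPKM. That call was lost with no filter (limma, adjusted p = 0.124) and with the same sum over all rows (0.751). The log2 change of Dppa2 was 0.39, and 0.30 to 0.49 with single libraries left out. Dppa4 stood at 113 and 116 FPKM in shLuci and 107 and 118 FPKM in shTex10 and did not pass (log2 change -0.02, SE 0.09). Among the 8 genes of this list 5 were called higher, 1 lower and 2 neither, at a median of 0.43, beside 19.8% and 31.8% of all genes and a median of -0.14. Gata2 and Gata3, which encode transcription factors also active in trophoblast, were among those that rose (log2 changes of 1.10 and 1.40). Gata3 is counted again among the trophoblast markers below. Prdm14, a regulator of naive pluripotency, fell (-1.65).

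Genes listed as repressors of the 2-cell-like state were mostly lower. The test called 21 of the 34 lower and 2 higher and left 11 uncalled, at a median log2 change of -0.53, against 31.8% of all genes called lower. Smchd1, which encodes a chromatin protein that acts in X inactivation, fell from 18.0 and 20.7 to 5.45 and 5.82 FPKM (log2 change -1.61, SE 0.11). Uhrf1, whose product brings DNMT1 to newly copied DNA, fell from 142 and 115 to 59.0 and 52.0 FPKM, and Chaf1b, a subunit gene of the histone chaperone CAF-1, from 34.6 and 37.9 to 16.4 and 17.7 FPKM. Hdac1, a histone deacetylase gene, had a log2 change of -0.75 (SE 0.08). Rif1, which encodes a telomere and replication timing protein tied to the silencing of Zscan4, did not pass, at 100.0 and 128 FPKM in shLuci and 110 and 132 FPKM in shTex10. The count of 21 fell to 1 when each library was rescaled to the same sum over all rows, sums that were 1403759 and 2224872 FPKM in the 2 shLuci libraries, whereas all 6 Zscan4 genes and 22 of the other 2-cell-like genes were called higher under that rescaling, where 5.55% of all genes were called higher and 2% lower. The log2 changes of Chaf1b, Uhrf1 and Hdac1 were -1.04, -1.19 and -0.74 under that rescaling, against -1.05, -1.19 and -0.75 without it. Their standard errors were 0.44, 0.44 and 0.43 under it, against 0.10, 0.13 and 0.08. Trp53, the gene of p53, is not in the list of repressors. It did not pass, at 240 and 199 FPKM in shLuci against 205 and 172 FPKM in shTex10.

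Telomere genes, which bear on the process ZSCAN4 is known for, are given beside the 19.8% of all genes called higher and the 31.8% called lower. The test called 2 of the 18 higher and 4 lower and left 12 uncalled, at a median log2 change of -0.23. Tert, the gene of the telomerase reverse transcriptase, rose from 4.78 and 3.91 to 6.76 and 6.12 FPKM. That call was lost with no filter (limma, adjusted p = 0.107) and with the same sum over all rows (0.648). The log2 change of Tert was 0.48, and 0.36 without shLuci replicate 2. Dkc1, of the telomerase holoenzyme, Terf2ip, of the shelterin complex at chromosome ends, and Blm, a DNA helicase gene, fell by 0.57, 0.50 and 0.58 on the log2 scale. The call of Terf2ip was lost with no filter (limma, adjusted p = 0.0889) and with the same sum over named genes (0.0645). Among 14 genes of meiotic recombination, 3 were called higher, 6 lower and 5 neither, beside the same shares, at a median of -0.16. Rec8, a meiotic cohesin subunit gene, rose from 1.87 and 1.31 to 14.5 and 12.5 FPKM, and Tex15 had a log2 change of 1.16, whereas Syce2, of the synaptonemal complex, fell from 59.0 and 67.6 to 21.5 and 22.0 FPKM and Hormad2, of meiotic chromosome axes, by 1.55 on the log2 scale.

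Other genes of the SCAN zinc finger family mostly did not pass the test. Among 18 tested genes of this family, 1 was called higher, 4 lower and 13 neither, beside 19.8% and 31.8% of all genes, at a median log2 change of -0.14, as over all genes. Scand1, which encodes a SCAN domain without zinc fingers, rose from a mean of 16.6 ± 0.488 to 30.5 ± 6.86 FPKM (SD, n = 2 each). Zkscan17, Zscan12 and Zkscan8 fell by 0.70, 0.44 and 0.33. With no filter the calls of Scand1 and Zscan12 were lost (limma, adjusted p = 0.0968 and 0.0611). The call of Zkscan8 was lost with no filter (limma, adjusted p = 0.0657) and with the same sum over named genes (0.222) or over all rows (0.745). With single libraries left out its log2 change stayed between -0.36 and -0.31.

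The identity of the cells was read from marker genes, beside 19.8% of all genes called higher and 31.8% lower. All 9 ES cell markers were expressed in all libraries, and 6 of them fell, among them Pou5f1, which encodes Oct4, from 938 and 848 to 600 and 549 FPKM (log2 change -0.64, SE 0.10), Nanog (-0.66), Zfp42 (-0.72) and Tdgf1 (-0.85). The call of Pou5f1 was lost under quantile normalization (limma, adjusted p = 0.149). Of the trophoblast markers, 6 of 8 were tested and all 6 rose, among them Tfap2c from 8.21 and 8.30 to 27.2 and 28.0 FPKM, Krt18, Gata3 and Hand1 (log2 changes of 1.07, 1.40 and 1.29). The 8 trophoblast genes summed to 140 and 149 FPKM in shLuci and 312 and 317 FPKM in shTex10. Of these sums Krt18 alone held 107 and 118 FPKM in shLuci and 234 and 239 FPKM in shTex10. The 7 primitive endoderm genes summed to 3.89 and 3.29 against 5.97 and 6.29 FPKM, with Dab2 as the 1 gene tested (log2 change 0.91). The 5 neural genes summed to 109 and 92.2 FPKM in shLuci and 53.6 and 44.5 FPKM in shTex10. Most of these sums was Tubb3, at 91.1 and 74.7 FPKM in shLuci and 36.4 and 28.9 FPKM in shTex10. Of 3 neural genes tested, Pax6 and Tubb3 fell (log2 changes of -2.10 and -1.32) and Nes rose (0.57). The sum of the 8 fibroblast genes overlapped between groups, at 37.2 and 28.7 against 43.3 and 32.1 FPKM. Single genes did not all overlap, with Col1a1 above in both shTex10 libraries and Col1a2 below. Of 4 tested, Col1a2 was called lower (log2 change -0.71, SE 0.12) and 3 were not called. With no filter the call of Col1a2 was lost (limma, adjusted p = 0.0552). None of the 4 lists of other cell types had a gene at 0 in every library. The part of these cell types in the Zscan4 result was not tested.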

How the data were processed

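RNA of 4 libraries was sequenced as 100-base single reads after poly(A) selection, per the labels' protocols. The authors deposited FPKM, with 1 table for each library. Build mm9, Cufflinks 2.1.1, Bowtie2 2.1.0 and TopHat2 2.0.10 stand in the submitters' processing notes. The annotation, the strand setting and the treatment of reads that fit several places were not given in the sources used here.

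Rows that share a gene name were summed (23311 rows, 22739 names), and 7329 unnamed rows stayed out of the test. The 11883 genes whose mean FPKM reached 1 entered limma (version 3.58.1, R 4.3.3, eBayes with trend, no block) as log2(FPKM + 1), Benjamini-Hochberg adjusted over all genes with a threshold of 0.05, two-sided. The fit was also run on simulated data with independent noise of the same spread for every gene. That setting is simpler than these libraries, so the run does not measure the error rate of the fit here. Members and lists were chosen with earlier results of these data known.

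Named genes were Tex10, the members, Dux, Dppa2, Dppa4, Trp53, Rif1, up to 4 genes with the smallest p per list, tested genes within 1 Mb, and the 6 nearest patterns. Vmn2r52, Vmn1r77 and the exceptions of the 2-cell-like list were named after their values were seen.

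FPKM holds no read totals. The summed FPKM of named rows was 525878 to 632067, and unnamed rows took 56.3% to 71.6% of all FPKM. From the smallest values above 0 in unnamed rows, depth relative to shLuci replicate 1 was roughly 82.9% to 94.0%, with 4.99% to 11.3% of row widths at the ratio used, so no counting intervals are given. The series' design text calls the libraries biological replicates without naming separate cultures, and a p-value here reflects only how these 4 libraries vary. Locus starts were moved from 0-based to 1-based, since 5 of 6 member widths then equal RefSeq lengths. Promoter windows are RefSeq's (GRCm38.p6) and transcripts GENCODE M21, analysed with Biopython 1.88 in Python 3.11.15. Alternatives covered pseudocount, filter, scaling, variance model, replicate block, row choice and each library left out. A fit without 1 library leaves 1 library in a group. The standard error of Zscan4a was 0.17 there against 0.09, so a call lost there need not mean dependence on that library.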

Additional observations from a re-analysis of the deposited data

Results flagged for a closer look

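The 10 unnamed rows inside the Zscan4 cluster, some of which share a locus, enter no comparison of genes. Their summed FPKM was 8.57 and 6.64 in shLuci and 58.7 and 58.6 in shTex10. The ratio of means was 7.71 ± 1.38 (SD carried over, n = 2 each), above the control level in both shTex10 libraries. It ran from 6.84 to 8.83 with single libraries left out, alternatives chosen after the data were seen. No test was applied.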

How the results depend on the processing

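All 96 alternative values of the 6 Zscan4 log2 changes (16 settings a gene) kept their direction and call, from 2.42 to 3.15, with a highest adjusted p of 0.0199 (limma, no filter). The alternatives of filter, variance model, replicate block and row choice leave the members' log2 changes as they are by construction. In those settings only the call could move, so their unchanged direction is no further evidence. The ratio of the Zscan4 sum, 7.24, was 8.29 under quantile normalization, 8.48 with the same sum over named genes, 6.82 to 7.71 with single libraries left out, and 7.28 with the unnamed rows of the cluster added, an alternative chosen after the data were seen. The same sum over named genes moved the median of all genes from -0.14 to 0.06, and the members' median relative to it was 2.82 there against 2.80.

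Of 6129 genes called, 2350 were higher (38.3%) and 3779 lower. With no filter 2378 were lower (48.1% of calls higher), and with a mean FPKM of at least 5 there were 1292 higher (29.3%). The same sum over named genes gave 1901 lower (63.2% higher), and the same sum over all rows 901 calls, 662 higher and 239 lower (73.5% higher). Libraries of the same number deviated together (r = 0.331 across 11883 genes, which are not independent), but the labels give no shared culture or day, so the numbers were not taken as pairs. With the replicate number as a block 8919 genes were called, 3210 higher (36.0%) and 5709 lower, and Trp53 passed the test (log2 change -0.22, limma adjusted p = 0.00223).

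With the same sum over all rows, list genes called were 3 higher for activators, 0 higher and 1 lower for repressors, 0 higher and 0 lower for telomere genes, 2 lower for meiotic genes, 0 higher and 0 lower for other Zscan genes, 0 lower for ES cell, 0 lower for fibroblast, 3 higher for trophoblast and 0 higher for neural markers. With the same sum over named genes they were 2 lower for telomere genes, 3 higher and 1 lower for other Zscan genes and 1 higher for fibroblast markers. Median scaling gave 2 other Zscan genes and 1 fibroblast marker higher, and quantile normalization 3 ES cell markers lower and 1 fibroblast marker higher. With single libraries left out, repressors called higher numbered 1 each time, telomere genes higher 0 to 2, other Zscan genes lower 2 to 3, and fibroblast markers 0 to 1 higher and 1 to 2 lower. The cause was not tested.

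Some changes that were not called turned sign. Dppa4 was at 0.046 under median scaling, 0.26 under quantile normalization, 0.20 with the named sum and -0.091 to 0.046 with single libraries left out. Trp53 was at 0.16 (quantile) and 0.0073 (named sum), Eif1a at 0.020 (median), 0.24 (quantile) and 0.18 (named sum), the fibroblast marker Thy1 at 0.041 (named sum) and the fibroblast marker Postn at -0.067 (quantile). With single libraries left out, Rif1 ran from -0.085 to 0.27, Eif1a from -0.16 to 0.064, Mt2 from -0.028 to 0.79, Thy1 from -0.36 to 0.14 and Postn from -0.0057 to 0.22. Depth is unknown, so the precision of the low Zscan4b values in shLuci cannot be given.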
